A study of Mus musculus with 9 samples.

Results

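Left ventricle of delta-sarcoglycan knockout mice given ifetroban (KO ifetroban) was set against left ventricle of wild-type mice given vehicle (WT vehicle). The question is how far the treated diseased ventricle stood from the untreated healthy one. Both groups differ in genotype and in treatment, so a difference between them holds the effect of the knockout, of the drug and of any interaction. The members were the 3 libraries titled dSG KO-ifetroban and the 2 titled WT-vehicle, which makes 5 of the 9 libraries of the study. The other 4 were 2 libraries of knockout given vehicle (KO vehicle) and 2 of wild type given ifetroban (WT ifetroban). The labels name the knockout only as dSG, which commonly stands for delta-sarcoglycan, the product of Sgcd. For strain, age, dose, length of treatment and the removed exon the labels give nothing. They do not state either that each library is a separate animal, so the p-values measure the spread among these samples alone, part of which may be technical.

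Delta-sarcoglycan is a membrane protein of the dystrophin-glycoprotein complex, which links the cytoskeleton of a muscle cell to the matrix around it. Without it the sarcoglycan subcomplex is not held at the membrane, heart muscle cells are injured, and the lost muscle is replaced by scar with macrophages and activated fibroblasts in it. A ventricle under strain also takes up genes of the fetal heart, such as those of the natriuretic peptides. Ifetroban blocks the thromboxane-prostanoid receptor, encoded by Tbxa2r, through which thromboxane constricts vessels, activates platelets and acts on fibroblasts and muscle cells.

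Read counts in genes ranged from 21628693 to 31394548 in the KO ifetroban libraries and were 21623386 and 25452280 in the WT vehicle libraries. Levels are given as CPM, reads scaled to a common library size, with TMM factors, a unit that compares libraries and not genes of different length. The targeted gene Sgcd had 9.77, 16.4 and 18.5 CPM in KO ifetroban, against 11.1 and 28.9 CPM in WT vehicle. The 2 groups overlapped, because the library labelled WT vehicle replicate 1 lay among the KO ifetroban libraries, which goes against its label. Pttg1 and Cyfip2, described below, had wild-type levels in it, at 76.7 and 194 CPM, against 1.66 to 2.46 and 17.5 to 44.9 CPM in all 5 knockout libraries. Every direction from WT vehicle below includes that library. Sgcd differed by -0.43 ± 0.39 on the log2 scale (SE, edgeR, BH-adjusted p = 0.999), and by 0.43 without WT vehicle replicate 2, where the library labelled WT vehicle replicate 1 stood alone. Libraries also differed in a trend with transcript length. Relative to short transcripts, long ones were low in KO ifetroban replicate 1, in both KO vehicle libraries and in the library labelled WT vehicle replicate 1 (Spearman correlation of each gene's deviation with length, across genes, -0.417 to -0.29). In the remaining 5 libraries they were high (0.302 to 0.386). As genes are no replicates of each other, these correlations only describe the libraries. Sgcd had 7.49 to 12.1 CPM in the libraries with long transcripts low, of either genotype. With long transcripts high it had 16.4 and 18.5 CPM in KO ifetroban, against 28.9 to 33.1 CPM in wild-type libraries. The part of the length trend in the overlap of Sgcd was not tested.

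Over all genes the treated knockout lay little farther from the untreated wild type than libraries of the same group lay from each other. The distance between 2 libraries was taken as the root mean square of the differences in log2 CPM over 15261 genes. The 6 pairs of a KO ifetroban and a WT vehicle library lay 0.490 to 0.684 apart, with a median of 0.627. The 3 pairs within KO ifetroban lay 0.434 to 0.582 apart, and the pair within WT vehicle lay 0.616 apart. These ranges overlapped. Among pairs whose libraries had the same kind of length trend, the 3 between the groups lay at 0.490, 0.515 and 0.597, against 0.434 for the 1 pair within KO ifetroban. Among pairs of different kinds, the 3 between the groups lay at 0.656 to 0.684, against 0.554 and 0.582 within KO ifetroban and 0.616 within WT vehicle. In each kind of pair, then, those between the 2 groups lay farther apart than those within them. At the same trend this rests on 1 pair of KO ifetroban, as WT vehicle had no such pair. In the other groups, pairs of the same trend lay 0.809 apart within KO vehicle and 0.448 within WT ifetroban. The kinds of trend were read from the same log2 CPM values as the distances. KO vehicle libraries lay 0.556 to 1.0 from the same WT vehicle libraries, and WT ifetroban libraries 0.384 to 0.634. Since pairs share libraries, these distances are a description with no test.

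**Figure D1:**
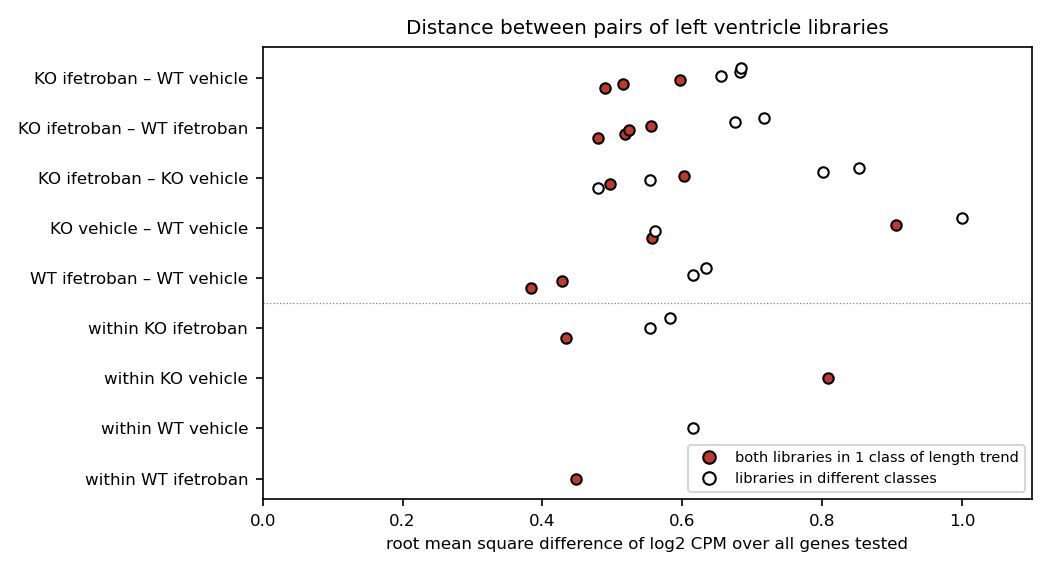
Root mean square difference of log2 CPM between pairs of libraries (x axis), by the groups of the pair (rows); each point is 1 pair, filled where both libraries have the same kind of length trend and open where they differ. The 6 pairs of KO ifetroban and WT vehicle lie between 0.490 and 0.684, with the 3 filled points to the left of the 3 open ones, and the WT vehicle pair lies at 0.616.

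Gene by gene, 2 of 15261 genes differed in edgeR, and both fell in KO ifetroban. Under edgeR's quasi-likelihood test with Benjamini-Hochberg adjustment, 0 genes rose and 2 fell at an adjusted p under 0.05, which is 0.0131% of the genes tested. An unadjusted p under 0.05 was reached by 671 genes (4.40%), where chance alone gives 763. They were uneven in direction, with 501 higher (3.28%) and 170 lower (1.11%) in KO ifetroban. DESeq2 called 37 genes higher (0.242%) and 4 lower (0.0262%). The CPM values of both groups did not overlap for 1708 genes higher (11.2%) and 1381 lower (9.05%) in KO ifetroban. With 3 libraries against 2, an exact permutation test of a single gene cannot give a two-sided p below 0.2. The median log2 fold change of all genes was -0.01, and 48.2% were positive. Where the mean level was at least 1 on the log2 CPM scale, which held for 11897 genes, 191 had a log2 fold change above 1 with no overlap of the groups, and 17 had one below -1.

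**Figure D2:**
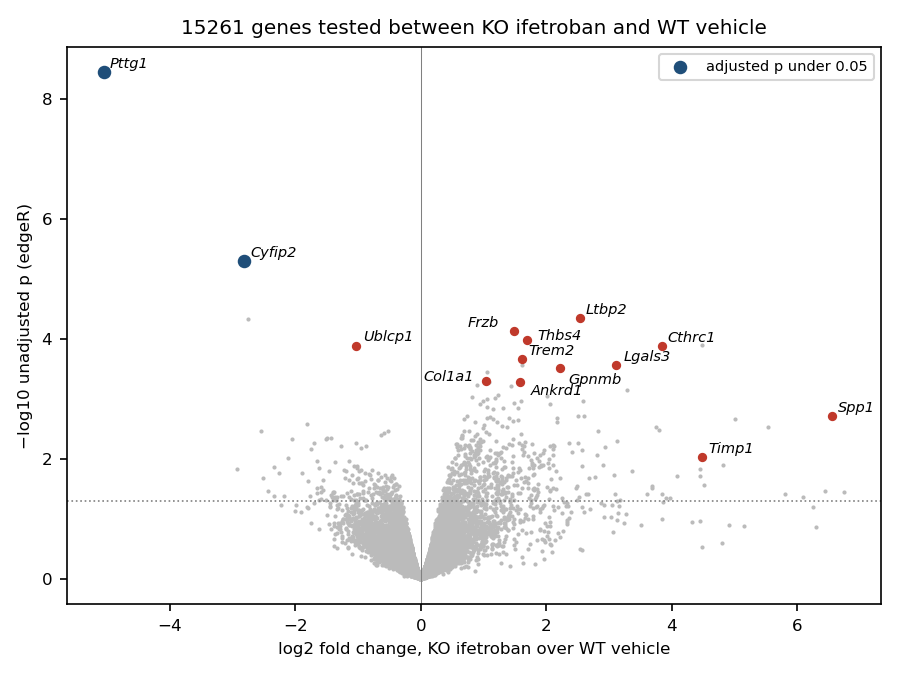
Log2 fold change of KO ifetroban over WT vehicle (x axis) against −log10 of the unadjusted p of edgeR (y axis) for 15261 genes; the dotted line marks an unadjusted p of 0.05. Large blue points are Pttg1 and Cyfip2, which passed the adjusted threshold; red points are 12 of the named genes that did not, of which Ublcp1 lies on the negative side and the others on the positive side.

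Pttg1 and Cyfip2 lie on chromosome 11 near Sgcd. Pttg1 encodes securin, which restrains the separation of sister chromatids until anaphase (ENSMUSG00000020415, GRCm38 chromosome 11, 43420250 to 43426251, minus strand). It had 1.96, 1.66 and 1.94 CPM in KO ifetroban, against 76.7 and 46.5 CPM in WT vehicle. All 3 knockout libraries were far below both wild-type libraries. Pttg1 fell by 5.06 ± 0.25 on the log2 scale (SE, edgeR, BH-adjusted p = 5.43e-05), with a mean of 1.85 ± 0.171 CPM in KO ifetroban (SD, n = 3) and 61.6 ± 21.4 CPM in WT vehicle (SD, n = 2). Cyfip2 encodes a subunit of the WAVE complex, which drives branched actin assembly (ENSMUSG00000020340, chromosome 11, 46193850 to 46312859, minus strand). It had 25.6, 27.6 and 44.9 CPM in KO ifetroban, against 194 and 266 CPM in WT vehicle. These groups too stood well apart. Cyfip2 fell by 2.82 ± 0.31 (edgeR, BH-adjusted p = 0.0379). Its call was lost when any 1 wild-type library was left out (edgeR adjusted p = 0.126 to 0.441), without replicate 1 or 2 of KO ifetroban (0.238 and 0.34) and with a term for the length trend (0.0785). The log2 fold change stayed between -3.12 and -2.56 under all alternatives.

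Both genes were low in every knockout library and high in every wild-type library, with or without the drug. Pttg1 had 1.72 and 2.46 CPM in KO vehicle, and 46.6 and 46.2 CPM in WT ifetroban. Cyfip2 had 17.5 and 33 CPM in KO vehicle, and 255 and 265 CPM in WT ifetroban. The log2 fold change of KO ifetroban over KO vehicle was -0.19 ± 0.27 for Pttg1 and 0.37 ± 0.31 for Cyfip2 (SE, edgeR, BH-adjusted p = 0.818 and 0.709).

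The 250 bases before the RefSeq start of both genes (assembly GRCm38.p6, minus strand, 5′ to 3′) are shown because these are the only 2 genes that passed the test in edgeR. The Pttg1 stretch is chr11:43425982-43426231 and the Cyfip2 stretch chr11:46312359-46312608. Both lie within the gene spans given above, which start farther upstream than the RefSeq starts. Neither holds the M-CAT element CATTCC, bound by TEAD factors in cardiac genes, the GC box GGGCGG or the TATA box TATAAA on either strand.
Pttg1: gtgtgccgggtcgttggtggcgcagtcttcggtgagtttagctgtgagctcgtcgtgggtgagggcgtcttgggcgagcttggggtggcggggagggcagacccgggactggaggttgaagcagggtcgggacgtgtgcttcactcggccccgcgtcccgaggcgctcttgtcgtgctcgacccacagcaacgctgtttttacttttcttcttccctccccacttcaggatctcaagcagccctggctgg
Cyfip2: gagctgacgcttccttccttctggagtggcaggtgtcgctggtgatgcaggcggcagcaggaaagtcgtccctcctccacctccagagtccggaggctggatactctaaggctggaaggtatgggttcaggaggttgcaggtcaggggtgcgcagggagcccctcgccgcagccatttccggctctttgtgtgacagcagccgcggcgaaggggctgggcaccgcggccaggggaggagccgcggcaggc

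Other genes around Sgcd were mostly level. Within 5 Mb on either side 92 further genes were tested, of which 2 were called lower, Pttg1 at 3.47 Mb and Cyfip2 at 0.58 Mb, on the same side of Sgcd. Their median log2 fold change was -0.00. At an unadjusted p under 0.05, 7 of the 92 were lower, Pttg1 and Cyfip2 included, and 3 higher. Over all genes these shares were 1.11% and 3.28%. Without overlap, 13 lay below and 6 above WT vehicle, where 9.05% and 11.2% of all genes did. Ublcp1, a phosphatase of the proteasome, lay 2.43 Mb away on that side and had 15.3, 14.3 and 14.2 CPM in KO ifetroban, against 33.7 and 25.7 CPM in WT vehicle (-1.03 ± 0.17, edgeR, BH-adjusted p = 0.221). Gm12167, a gene model without a proper name that was chosen after its values were seen, lay 0.55 Mb away and had 1.31, 0.767 and 1.47 CPM in KO ifetroban, against 8.93 and 6.88 CPM in WT vehicle (-2.75 ± 0.395, edgeR, BH-adjusted p = 0.177). Both groups stood apart in these 2 genes, and DESeq2 called them along with Pttg1 and Cyfip2, so its 4 lower genes all lay within 5 Mb of Sgcd on 1 side.

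**Figure D3:**
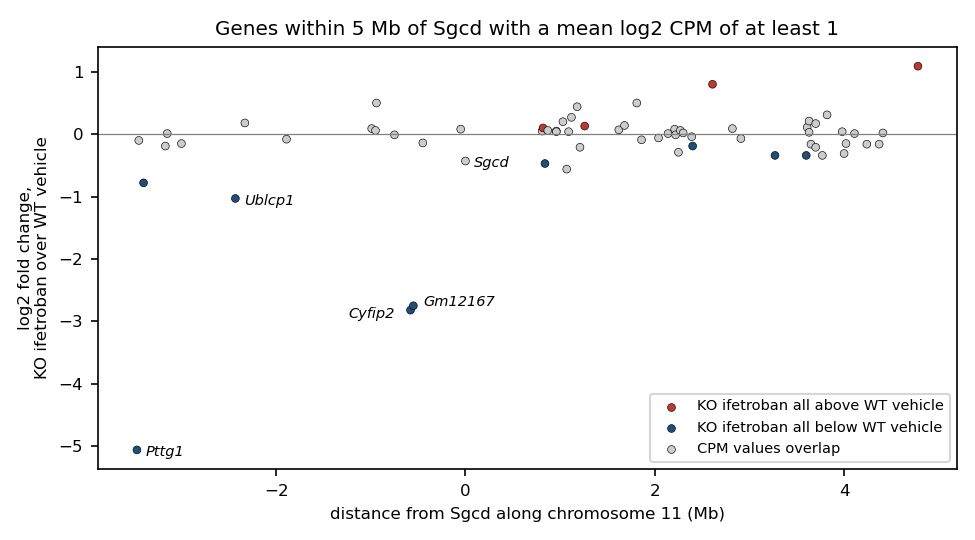
Log2 fold change of KO ifetroban over WT vehicle (y axis) against distance from Sgcd on chromosome 11 in Mb (x axis); each point is a gene whose mean log2 CPM reaches 1, coloured by whether all KO ifetroban values lie above (red) or below (blue) both WT vehicle values or overlap with them (grey). Pttg1 at -5.06, Cyfip2 at -2.82, Gm12167 at -2.75 and Ublcp1 at -1.03 lie on the left of Sgcd and most other points near 0.

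The further genes with the smallest p below WT vehicle did not pass. Mhrt, a heart RNA made antisense to the myosin heavy chain Myh7, had 39.5, 38 and 40.4 CPM in KO ifetroban, against 54.7 and 58.2 CPM in WT vehicle (-0.52 ± 0.14, edgeR, BH-adjusted p = 0.815). Gpt, an alanine aminotransferase, had 34.1, 25.2 and 32.4 CPM in KO ifetroban, against 46.5 and 48.2 CPM in WT vehicle. Myh7b, a slow-type myosin heavy chain, had 27.4, 41 and 39.4 CPM in KO ifetroban, against 58.5 and 80.6 CPM in WT vehicle. In each of these 3 every knockout library was below both wild-type libraries. Ggnbp1 (-0.59), Rad9b (-1.04), Snhg14 (-0.87) and Lgi3 (-1.15) completed the rule, with edgeR BH-adjusted p of 0.815 to 0.894. Between the treated groups, KO ifetroban over WT ifetroban, the log2 fold changes were -0.08 for Ggnbp1, -0.24 for Rad9b, 0.05 for Snhg14 and -0.90 for Lgi3.

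Most extracellular matrix genes lay above the wild type, although no single one passed the test in edgeR. DESeq2 did call some of them, among them Ltbp2 (adjusted p = 6.35e-10), Thbs4 (9.65e-06), Lox (6.64e-04), Fn1 (0.00128), Col1a1 (0.0017) and Col3a1 (0.00225). Of 18 tested collagen genes 18 had positive log2 fold changes, with a median of 0.68 against -0.01 for all genes. Of these, 10 were higher at an unadjusted p under 0.05 and 0 lower, where 3.28% of all genes were higher, and 10 had values above both WT vehicle libraries in every KO ifetroban library, where 11.2% of all genes did. Col1a1, which encodes the main chain of type I collagen, had 219, 299 and 296 CPM in KO ifetroban, against 113 and 150 CPM in WT vehicle (1.05 ± 0.20, edgeR, BH-adjusted p = 0.478). Col3a1, the fibrillar collagen of pliable tissue, had 397, 526 and 564 CPM in KO ifetroban, against 159 and 263 CPM in WT vehicle (1.23 ± 0.26, edgeR, BH-adjusted p = 0.601). The groups did not overlap in either gene. Col5a2, which sets fibril diameter, was at 0.95 and Col12a1, a fibril-associated collagen, at 1.66. Leaving out the library labelled WT vehicle replicate 1 gave a collagen median of 0.43.

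Non-collagen matrix genes were positive in 23 of 24 cases, with a median of 0.79. At an unadjusted p under 0.05, 12 were higher and 0 lower, where 3.28% and 1.11% of all genes were. Without overlap, 17 lay above WT vehicle, where 11.2% of all genes did. Ltbp2, a microfibril protein related to the carriers of latent TGF-beta, had the smallest p of all genes on the positive side. It had 21, 17.7 and 35.3 CPM in KO ifetroban, against 2.87 and 5.56 CPM in WT vehicle. Every knockout library lay well above both wild-type libraries. Ltbp2 was at 2.53 ± 0.36 (edgeR, BH-adjusted p = 0.177). It had 8.71 and 8.2 CPM in WT ifetroban, also above WT vehicle (0.99 ± 0.37, edgeR, BH-adjusted p = 0.999), and KO ifetroban over WT ifetroban was at 1.54 ± 0.34. Thbs4, a matricellular thrombospondin of injured heart, had 20.7, 18.9 and 15.9 CPM in KO ifetroban, against 6.26 and 5.14 CPM in WT vehicle (1.70 ± 0.27, edgeR, BH-adjusted p = 0.221). Its 3 knockout libraries were close together and clear of the wild type. Cthrc1, a secreted protein of activated fibroblasts, had 32, 46 and 27 reads in KO ifetroban, against 1 and 3 reads in WT vehicle, so that its fitted log2 fold change of 3.84 depends on the prior count. Fn1, fibronectin, was at 1.60 ± 0.35 with 163, 139 and 139 CPM in KO ifetroban, against 33.9 and 62.7 CPM in WT vehicle. Postn, a matrix protein of activated fibroblasts, had 84.3, 111 and 149 CPM in KO ifetroban, against 40.3 and 37.9 CPM in WT vehicle (1.56 ± 0.35, edgeR, BH-adjusted p = 0.632). In both genes the lowest knockout library lay above the highest wild-type library.

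**Figure D4:**
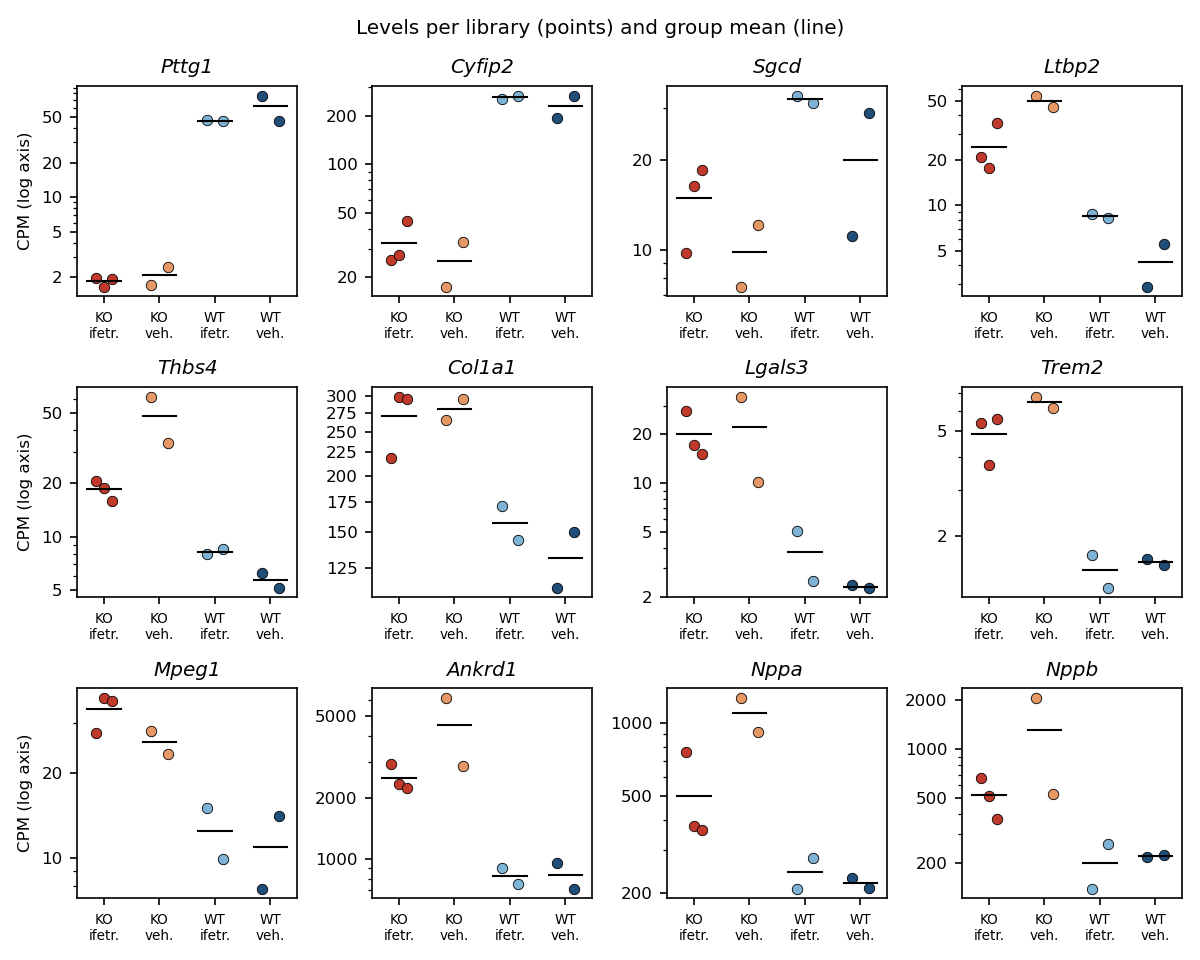
CPM on a log axis (y) of 12 genes in each library (points) with the group mean (line), for KO ifetroban (3 libraries), KO vehicle, WT ifetroban and WT vehicle (2 each) from left to right. In 11 of the 12 genes the KO ifetroban points do not overlap the WT vehicle points; the exception is Sgcd, the targeted gene.

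Enzymes that cross-link and cut the matrix showed 20 of 21 positive members, with a median of 0.64. At an unadjusted p under 0.05, 11 were higher and 0 lower, where 3.28% and 1.11% of all genes were. Without overlap, 13 lay above WT vehicle, where 11.2% of all genes did. Lox, lysyl oxidase, which cross-links collagen and elastin, had 22.1, 21.1 and 18.2 CPM in KO ifetroban, against 4 and 5.8 CPM in WT vehicle (2.05 ± 0.46, edgeR, BH-adjusted p = 0.607). Its relative Loxl1 had 78.2, 75.3 and 74.9 CPM in KO ifetroban, against 43.3 and 47.7 CPM in WT vehicle (0.74 ± 0.17). The spread within each group was small in both genes. Mmp12, the macrophage elastase, had 5.47, 3.44 and 3.1 CPM in KO ifetroban, against 0.359 and 0.734 CPM in WT vehicle. P4ha3, a collagen prolyl hydroxylase subunit, had 11, 22 and 22 reads in KO ifetroban, against 1 and 4 reads in WT vehicle. Timp1, an inhibitor of matrix proteases, had 96.8, 31.9 and 21.2 CPM in KO ifetroban, against 3.18 and 1.35 CPM in WT vehicle (4.49 ± 1.39, edgeR, BH-adjusted p = 0.851). Timp1 was above the wild type in all 3 libraries, but by very different amounts, with KO ifetroban replicate 1 the highest.

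Growth factor and Wnt genes tied to scar formation lay above the wild type in part. Of 13 TGF-beta genes 11 were positive, with a median of 0.41. At an unadjusted p under 0.05, 4 were higher and 0 lower, where 3.28% and 1.11% of all genes were. Without overlap, 6 lay above WT vehicle, where 11.2% of all genes did. Tgfb1, the ligand, had 41.4, 35.9 and 31.8 CPM in KO ifetroban, against 32 and 32 CPM in WT vehicle, which overlaps. The ligand Tgfb2 had 25.2, 19.4 and 18.1 CPM in KO ifetroban, against 9.5 and 8.89 CPM in WT vehicle (1.18 ± 0.25, edgeR, BH-adjusted p = 0.601). Unlike Tgfb1, its groups did not overlap. Tgfbi, a secreted adhesion protein induced by TGF-beta, was at 1.34 ± 0.56. Ccn2, a matricellular protein also induced by it, had 202, 161 and 144 CPM in KO ifetroban, against 47.8 and 63 CPM in WT vehicle (1.61 ± 0.58, edgeR, BH-adjusted p = 0.999). Of 12 Wnt genes 8 were positive. At an unadjusted p under 0.05, 5 were higher and 0 lower, where 3.28% and 1.11% of all genes were. The median of the 12 was 0.71. That median was 0.43 without KO ifetroban replicate 3 and 0.41 when the library labelled WT vehicle replicate 1 was left out. Frzb, a secreted Wnt antagonist, had 9.96, 8.62 and 11.7 CPM in KO ifetroban, against 3.64 and 3.55 CPM in WT vehicle (1.48 ± 0.23, edgeR, BH-adjusted p = 0.221). The treated wild type, WT ifetroban, also lay above WT vehicle, with 7.94 and 6.1 CPM of Frzb (0.96 ± 0.24, edgeR, BH-adjusted p = 0.999). KO ifetroban over WT ifetroban was at 0.52 ± 0.21 for Frzb. Its relative Sfrp2 had 4.82, 6.84 and 17 CPM in KO ifetroban, against 2.21 and 3.25 CPM in WT vehicle. Frzb was even within the knockout, and Sfrp2 was carried most by replicate 3.

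Markers of fibroblasts as such differed less in the median than the list of activated fibroblast markers, whose members were uneven. Of 13 activated fibroblast markers 7 were higher at an unadjusted p under 0.05, where 3.28% of all genes were. The 13 markers had a median of 0.82, with 11 positive. Of these 13, 8 were above WT vehicle without overlap, where 11.2% of all genes were. Acta2 (0.38), Tagln (0.07), Fap (-0.06), Fmod (0.69) and Ddah1 (-0.04) overlapped. Without WT vehicle replicate 2 the median was 1.5. Their summed level was 463, 459 and 532 CPM in KO ifetroban, against 251 and 285 CPM in WT vehicle. General fibroblast markers had a median of 0.17, with 14 of 15 positive and 1, Col1a1, higher at an unadjusted p under 0.05. Their median was 0.04 without KO ifetroban replicate 3 and 0.27 without replicate 1. Their sum was 2301, 2600 and 3195 CPM in KO ifetroban, against 2253 and 2383 CPM in WT vehicle, which overlaps. Several genes sit on both this list and the matrix lists, and the difference between the lists was not tested. In these bulk samples a larger number of cells of a type and more RNA per cell cannot be told apart.

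Genes of wall stress stood above the wild type in the treated knockout, without passing the test in edgeR. The hypertrophy and fetal list had 14 positive genes of 17 tested and a median of 0.53. Of these 17, 12 were above WT vehicle without overlap, where 11.2% of all genes were. At an unadjusted p under 0.05, 3 were higher, where 3.28% of all genes were. Nppa, the gene of atrial natriuretic peptide, had 759, 379 and 363 CPM in KO ifetroban, against 230 and 209 CPM in WT vehicle (1.19 ± 0.33, edgeR, BH-adjusted p = 0.815). Nppb, the gene of brain natriuretic peptide, had 670, 519 and 372 CPM in KO ifetroban, against 217 and 224 CPM in WT vehicle (1.24 ± 0.51, edgeR, BH-adjusted p = 0.999). Both peptides were highest in replicate 1, and their lowest knockout libraries still lay above the wild type. Ankrd1, a stretch-responsive partner of titin, had 2911, 2331 and 2226 CPM in KO ifetroban, against 949 and 713 CPM in WT vehicle. Its difference was 1.58 ± 0.31 (edgeR, BH-adjusted p = 0.478), and it passed the test in the libraries with long transcripts high alone (1.68, edgeR adjusted p = 0.0213) and without KO vehicle replicate 1 (1.58, edgeR adjusted p = 0.039) or replicate 2 (1.59, edgeR adjusted p = 0.0406). DESeq2 called it as well (1.57, adjusted p = 2.15e-04). Its relative Ankrd2 had 7.01, 1.38 and 2.09 CPM in KO ifetroban, against 0.462 and 0.309 CPM in WT vehicle.

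The fetal shift of the motor protein was small. Myh7, the slow myosin heavy chain that gives way to Myh6 in the adult mouse, made up 1.19%, 1.14% and 1.27% of the sum of both, per length of transcript, in KO ifetroban, against 0.833% and 0.453% in WT vehicle. The groups did not overlap, and the shares were 1.26% and 3.78% in KO vehicle and 0.766% and 1.16% in WT ifetroban. Myh6 had 13394, 19915 and 22415 CPM in KO ifetroban, against 15972 and 24022 CPM in WT vehicle, and overlapped. Acta1, skeletal actin of the fetal program, had 601, 198 and 812 CPM in KO ifetroban, against 1361 and 313 CPM in WT vehicle (-0.64 ± 0.60). Its direction turned without the library labelled WT vehicle replicate 1 (0.77) and in the libraries with long transcripts high (0.69).

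The 250 bases before the RefSeq starts of Ankrd1 (chr19:36119845-36120094, minus strand) and Nppb (chr4:147985650-147985899, plus strand), on GRCm38.p6, are shown because these stress genes stood above the wild type in all 3 libraries. Capitals mark the M-CAT element, found here as its reverse complement GGAATG, with both strands searched. Ankrd1 holds 2 matches, at 210 and 123 bases before the start, and Nppb holds 1, at 105 bases. Nppb also holds the TATA box TATAAA 31 bases before the start. The Ankrd1 stretch lies within the span of its GENCODE gene model, and the Nppb stretch does so in part. Of 32851 promoter stretches of this length, 12.6% held M-CAT, 32.7% the GC box and 12.4% the TATA box. A match is a description of the letters and not a site of binding.
Ankrd1: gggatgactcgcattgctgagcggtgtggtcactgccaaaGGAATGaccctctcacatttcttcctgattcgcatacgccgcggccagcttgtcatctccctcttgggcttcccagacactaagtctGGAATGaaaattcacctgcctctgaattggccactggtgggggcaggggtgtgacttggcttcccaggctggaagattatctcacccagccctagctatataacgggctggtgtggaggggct
Nppb: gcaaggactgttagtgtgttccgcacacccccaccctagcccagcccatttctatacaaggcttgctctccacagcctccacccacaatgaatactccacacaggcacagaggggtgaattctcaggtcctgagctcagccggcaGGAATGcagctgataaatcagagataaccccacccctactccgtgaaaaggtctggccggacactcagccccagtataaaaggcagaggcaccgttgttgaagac

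Macrophage transcripts formed the most uniform difference among the lists of cell types. All 23 markers of macrophages and monocytes were positive, with a median of 1.0. Of these, 17 were higher and 0 lower at an unadjusted p under 0.05, and 20 were above WT vehicle without overlap, where 3.28% and 11.2% of all genes were. Their summed level was 823, 705 and 724 CPM in KO ifetroban, against 390 and 369 CPM in WT vehicle. None passed the adjusted test in edgeR, while DESeq2 called Lgals3 (adjusted p = 8.86e-08), Mpeg1 (1.06e-04), Gpnmb (1.86e-04), Spp1 (7.91e-04) and Trem2 (0.00184), among others. Trem2, a lipid-sensing receptor of tissue macrophages, had 5.38, 3.74 and 5.58 CPM in KO ifetroban, against 1.64 and 1.55 CPM in WT vehicle (1.62 ± 0.28, edgeR, BH-adjusted p = 0.333). Mpeg1, a pore-forming protein of phagocytes, had 27.6, 36.9 and 36 CPM in KO ifetroban, against 7.8 and 14.1 CPM in WT vehicle (1.61 ± 0.29, edgeR, BH-adjusted p = 0.349). Lgals3, which encodes galectin-3, had 27.9, 17.1 and 15.2 CPM in KO ifetroban, against 2.36 and 2.28 CPM in WT vehicle (3.11 ± 0.56, edgeR, BH-adjusted p = 0.349). In all 3 genes the groups stood clear of each other. Gpnmb, a glycoprotein of phagocytic macrophages, was at 2.23 ± 0.41, and the leukocyte genes Ptprc, which encodes CD45, and Nckap1l, a WAVE subunit of blood cells, at 1.08 ± 0.21 and 1.06 ± 0.20. Spp1, osteopontin, had 56.8, 19.4 and 5.78 CPM in KO ifetroban, against 0.205 and 0.348 CPM in WT vehicle, with 4 and 9 reads in the WT vehicle libraries. It varied widely within the knockout, with replicate 1 the highest, and its log2 fold change of 6.56 ± 1.55 did not pass (edgeR, BH-adjusted p = 0.722).

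Other immune lists followed with smaller counts. Over all genes, 3.28% were higher and 1.11% lower at an unadjusted p under 0.05. Without overlap, 11.2% of all genes lay above WT vehicle. Complement genes were positive in 13 of 13 cases, with a median of 0.56, 7 higher and 0 lower at an unadjusted p under 0.05, and 10 above WT vehicle without overlap. C3ar1, the receptor of the C3a fragment, had 13.9, 15.6 and 15.2 CPM in KO ifetroban, against 6.31 and 7.92 CPM in WT vehicle (1.06 ± 0.24, edgeR, BH-adjusted p = 0.632). C4b, a component of the classical pathway, had 23.6, 38.9 and 71.3 CPM in KO ifetroban, against 17.9 and 20 CPM in WT vehicle. C3ar1 was even over the knockout libraries and C4b uneven. Markers of MHC class II and dendritic cells were positive in 10 of 11 cases, with a median of 0.94 and 6 higher at an unadjusted p under 0.05. H2-Aa, a class II chain, had 40.2, 33.2 and 45.6 CPM in KO ifetroban, against 19.2 and 24.4 CPM in WT vehicle (0.86 ± 0.23), and Cd74, the invariant chain, was at 0.94 ± 0.28. Cytokines and chemokines were positive in 24 of 28 cases, with a median of 1.07. At an unadjusted p under 0.05, 5 were higher and 1 lower. The median was 1.82 when the library labelled WT vehicle replicate 1 was left out. Cxcl16, a chemokine that is also a scavenger receptor, had 13.8, 16.7 and 11.1 CPM in KO ifetroban, against 7.7 and 7.11 CPM in WT vehicle (0.90 ± 0.25). Ccl8, a monocyte chemokine, had 1.78, 2.33 and 3.76 CPM in KO ifetroban, against 0.77 and 0.58 CPM in WT vehicle. Both were without overlap. Interferon-induced genes lay near 0, with a median of 0.07, which turned to -0.12 when that library was left out, and 0 higher or lower at an unadjusted p under 0.05.

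Neutrophil and lymphocyte markers were low in level. Over all genes, 3.28% were higher at an unadjusted p under 0.05, and 11.2% lay above WT vehicle without overlap. Of 12 neutrophil markers 8 were tested, all 8 positive, with a median of 1.17, 2 higher at an unadjusted p under 0.05 and 3 above WT vehicle without overlap. The median ranged from 0.74 without KO ifetroban replicate 1 to 1.84 when the library labelled WT vehicle replicate 1 was left out. Their sum was 85.3, 40.3 and 30.7 CPM in KO ifetroban, against 20.7 and 9.74 CPM in WT vehicle. Csf3r, the receptor of granulocyte colony-stimulating factor, had 7.85, 5.37 and 4.31 CPM in KO ifetroban, against 3.03 and 2.16 CPM in WT vehicle. Of 16 markers of T and NK cells only 4 had enough reads to be tested, and Cd3e, Cd3d and Cd3g, which define T cells, were not among them. All 4 were positive, with a median of 1.83, 2 higher at an unadjusted p under 0.05 and 3 above WT vehicle without overlap. Their sum was 1.92, 2.33 and 2.6 CPM in KO ifetroban, against 0.77 and 1.28 CPM in WT vehicle. The filter on low counts can keep such genes through the libraries where they are high. Nothing is therefore drawn from the direction of the T and NK markers, nor from that of the neutrophil markers. Of 9 tested markers of B and plasma cells 7 were positive, with a median of 0.17 and 0 at an unadjusted p under 0.05.

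Genes of prostanoid synthesis and signalling, the pathway of the drug, differed little in the median, with some members above the wild type. Of 21 tested members 14 were positive, with a median of 0.18, 2 higher and 0 lower at an unadjusted p under 0.05 (3.28% and 1.11% of all genes), and 6 above and 1 below WT vehicle without overlap (11.2% and 9.05% of all genes). Without KO ifetroban replicate 1 the median was 0.11. Tbxa2r, the receptor that ifetroban blocks, had 3.69, 1.96 and 4.03 CPM in KO ifetroban, against 2.93 and 3.55 CPM in WT vehicle (-0.02 ± 0.37, edgeR, BH-adjusted p = 0.999), and its groups overlapped. Tbxas1, thromboxane synthase, had 5.05, 3.53 and 4.54 CPM in KO ifetroban, against 1.64 and 2.9 CPM in WT vehicle (0.93 ± 0.35, edgeR, BH-adjusted p = 0.999). Its groups did not overlap. Macrophages also express it, their markers summed to 823, 705 and 724 CPM in KO ifetroban, against 390 and 369 CPM in WT vehicle, and the part of these cells was not tested. Ptgis, prostacyclin synthase, had 26.7, 18 and 27.8 CPM in KO ifetroban, against 18.8 and 13.4 CPM in WT vehicle, and overlapped. The cyclooxygenase genes Ptgs1 (0.18 ± 0.24) and Ptgs2 (0.62 ± 0.97) overlapped too. Pla2g4a, the phospholipase that frees arachidonic acid, had 6.08, 4.91 and 5.9 CPM in KO ifetroban, against 3.75 and 2.51 CPM in WT vehicle (0.85 ± 0.26, edgeR, BH-adjusted p = 0.851). Alox5ap, which hands arachidonic acid to the leukotriene pathway, was at 0.84 ± 0.38.

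**Figure D5:**
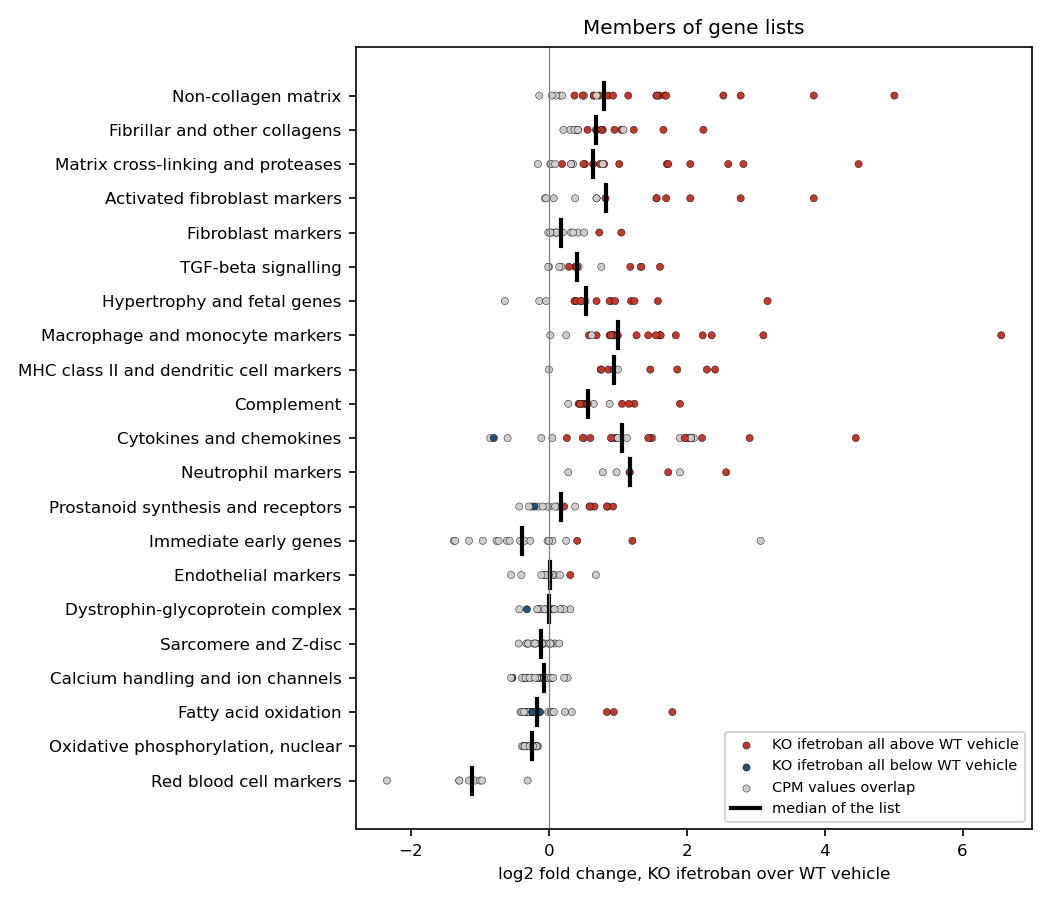
Log2 fold change of KO ifetroban over WT vehicle (x axis) of the tested members of 21 gene lists (rows); each point is a gene, red or blue where all KO ifetroban values lie above or below both WT vehicle values, grey where they overlap, and the bar is the median. The medians of the matrix, macrophage, MHC class II and complement lists lie between 0.56 and 1.0, and those of the sarcomere, calcium, fatty acid and oxidative phosphorylation lists between -0.25 and -0.07.

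Genes of the working heart muscle cell differed little. The sarcomere list had a median of -0.11, with 5 of 20 positive and 0 members outside the range of WT vehicle in either direction. When the library labelled WT vehicle replicate 1 was left out, the direction turned, to 0.01 with 12 of 20 positive. The calcium handling and ion channel list had a median of -0.07, with 8 of 31 positive and 1 lower at an unadjusted p under 0.05. The median ranged from -0.23 to -0.03 when either WT vehicle library was left out. The lower gene was Hrc, a calcium-binding protein of the sarcoplasmic reticulum, with 743, 734 and 777 CPM in KO ifetroban, against 937 and 983 CPM in WT vehicle (-0.35 ± 0.14, edgeR, BH-adjusted p = 0.999). Atp2a2, which pumps calcium back into it, had 12497, 15670 and 15733 CPM in KO ifetroban, against 14141 and 16992 CPM in WT vehicle (-0.09 ± 0.18). Hrc was even within groups, while Atp2a2 overlapped. In the dystrophin-glycoprotein complex 10 of 19 members were positive, with a median of 0.00, which was -0.15 to 0.06 when either WT vehicle library was left out, and 0 at an unadjusted p under 0.05. Among the partners of delta-sarcoglycan, Sgca had 103, 92.7 and 83 CPM in KO ifetroban, against 122 and 110 CPM in WT vehicle (-0.32 ± 0.16), Sgcb was at -0.14 ± 0.16 and sarcospan, Sspn, at -0.16 ± 0.21 (edgeR, BH-adjusted p = 0.999 for all 3).

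Energy metabolism leaned slightly below the wild type. All 32 nuclear genes of oxidative phosphorylation were negative, with a narrow range of -0.39 to -0.16 and a median of -0.25, yet 0 had an unadjusted p under 0.05 and 3 were below WT vehicle without overlap, a share near the 9.05% of all genes. Leaving out the library labelled WT vehicle replicate 1 gave a median of -0.02, and leaving out WT vehicle replicate 2 gave -0.46. Of 32 genes of fatty acid oxidation 8 were positive, with a median of -0.18, 0 at an unadjusted p under 0.05, and 12 below and 3 above WT vehicle without overlap, where 9.05% and 11.2% of all genes were. Its median was -0.11 when the library labelled WT vehicle replicate 1 was left out. Hadh, a dehydrogenase of the pathway, had 451, 426 and 405 CPM in KO ifetroban, against 548 and 528 CPM in WT vehicle (-0.33 ± 0.15). Glycolysis genes had a median of -0.12, with 4 of 20 positive, which became -0.02 with 10 of 20 positive when that library was left out. The 1 gene lower at an unadjusted p under 0.05 was Pfkfb2, a regulator of phosphofructokinase in heart, with 25.7, 32.7 and 30.3 CPM in KO ifetroban, against 47.2 and 57 CPM in WT vehicle (-0.82 ± 0.29, edgeR, BH-adjusted p = 0.999). Both named enzymes were below the wild type in all 3 libraries. Cardiomyocyte markers, which define the tissue, were abundant in all 5 libraries, with sums of 68559, 62628 and 67582 CPM in KO ifetroban, against 79045 and 72496 CPM in WT vehicle.

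Markers of other cell types and tissues differed among single libraries in part. Endothelial markers had a median of 0.02 and sums of 1974, 2104 and 2121 CPM in KO ifetroban, against 2186 and 2134 CPM in WT vehicle. Red blood cell markers were negative in 8 of 8 cases, with a median of -1.12, but their sums of 218, 83.7 and 198 CPM in KO ifetroban overlapped with 508 and 153 CPM in WT vehicle, and leaving out the library labelled WT vehicle replicate 1 gave a median of 0.06. Immediate early genes had a median of -0.39, which turned to 0.69 without that library. Alb, the liver's albumin gene, had 4.58, 0.337 and 0.271 CPM in KO ifetroban, against 0.565 and 0.502 CPM in WT vehicle. KO ifetroban replicate 3 alone carried the fast skeletal muscle genes Tnnt3 and Mylpf, at 6.13 and 6.28 CPM, against 0.307 to 0.966 CPM in the other 4 libraries. Of 9 adipocyte markers 3 were tested, all 3 positive, with a median of 1.77. Without overlap, 2 lay above WT vehicle, where 11.2% of all genes did. The summed level of the list was 13.8, 14.7 and 13.1 CPM in KO ifetroban, against 11.9 and 9.66 CPM in WT vehicle. The median of the 3 was 1.49 to 2.11 when any of the 5 libraries was left out, while Adipoq and Plin1, which define fat cells, had too few reads to be tested. As the filter on low counts can keep genes through the libraries where they are high, nothing is drawn from the direction of these 3. The part of such material in the results above was not tested.

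Set against the knockout without drug, the treated knockout differed in 0 genes (0%) at an adjusted p under 0.05 in edgeR. The smallest edgeR BH-adjusted p between KO ifetroban and KO vehicle was 0.688. At an unadjusted p under 0.05, 396 genes were higher in KO ifetroban (2.59%) and 370 lower (2.42%), and DESeq2 called 3 (0.0197%). Among the genes above, Thbs4 had 20.7, 18.9 and 15.9 CPM in KO ifetroban, against 61.6 and 33.8 CPM in KO vehicle (-1.36 ± 0.24, edgeR, BH-adjusted p = 0.688). Ltbp2 had 21, 17.7 and 35.3 CPM in KO ifetroban, against 54.1 and 45.2 CPM in KO vehicle (-1.01 ± 0.31). Nppa had 759, 379 and 363 CPM in KO ifetroban, against 1278 and 923 CPM in KO vehicle (-1.14 ± 0.31). In these 3 genes every treated library lay below both vehicle libraries, and all 3 had an edgeR BH-adjusted p of 0.688. Trem2 (-0.40 ± 0.25), Lgals3 (-0.14 ± 0.47), Col1a1 (-0.05 ± 0.20) and Col3a1 (-0.03 ± 0.25) differed by less between the 2 knockout groups, and Mpeg1 was at 0.38 ± 0.27.

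The lists were set side by side in the same way. KO ifetroban and KO vehicle share their WT vehicle libraries, so their distances from it are not independent and are only given next to each other. For KO ifetroban and KO vehicle, each over WT vehicle, the median log2 fold changes were 0.68 and 0.88 for collagens, 0.79 and 1.58 for non-collagen matrix and 0.82 and 2.15 for activated fibroblast markers. They were 0.53 and 1.35 for hypertrophy genes, 1.0 and 1.36 for macrophage markers, 0.94 and 0.91 for MHC class II and -0.07 and -0.57 for calcium handling and ion channels. In other lists the treated knockout had the larger distance, with -0.25 and -0.10 for oxidative phosphorylation, -0.11 and -0.03 for the sarcomere, -0.12 and 0.04 for glycolysis and 0.35 and 0.17 for endocardial and valve markers. When the library labelled WT vehicle replicate 1 was left out, these 4 medians of KO ifetroban were -0.02, 0.01, -0.02 and 0.35. In the comparison of both knockout groups itself, 9 of 13 activated fibroblast markers and 8 of 17 hypertrophy genes were lower in KO ifetroban at an unadjusted p under 0.05, where 2.42% of all genes were. Some of these were uneven between the KO vehicle libraries, with replicate 1 far higher. Nppb had 2081 and 531 CPM in KO vehicle, against 670, 519 and 372 CPM in KO ifetroban. Lox had 62.3 and 17.9 CPM, against 22.1, 21.1 and 18.2 CPM. Ankrd1 and Ankrd2 overlapped in the same way, and Postn overlapped through KO vehicle replicate 1. In Thbs4, Cthrc1, Nppa and Acta1 both vehicle libraries lay above every treated one. For calcium handling and ion channels 9 of 31 were higher, where 2.59% of all genes were, among them Kcnv2, a potassium channel subunit, with 5.28, 10.4 and 7.68 CPM in KO ifetroban, against 2.98 and 3.97 CPM in KO vehicle (1.17 ± 0.34, edgeR, BH-adjusted p = 0.688). Macrophage markers had 1 member higher and 1 lower. Both KO vehicle libraries had long transcripts low, as did 1 of the 3 KO ifetroban libraries, and on the first principal component, with 47.5% of the variance, KO vehicle replicate 1 lay at 84.4, the farthest out. The part of these library differences in the comparison was not tested.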

How the data were processed

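Polyadenylated RNA of mouse left ventricle was sequenced in 9 libraries. For each the authors deposited whole-number read counts by gene, not normalized. STAR 2.5.2b, HTSeq and the build GRCm38 are named in the submitters' processing notes, which give no annotation release. Each deposited table has 3 count columns, without regard to strand and for each strand; the reverse column, which held 14.5 times the reads of the forward one, was used. The 4 rows that name no gene held 26.6% to 31.9% of counts and were left out. Of 49671 identifiers, 49412 were matched to GENCODE (GRCm38). Counts in genes were 21299748 to 31394548 per library. Groups and replicate numbers came from titles.

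Replicates differed by far more than sampling noise (chi-square per degree of freedom 15.0 to 92.8). Genes were tested with edgeR 4.0.16 in R 4.3.3 (TMM, filterByExpr, quasi-likelihood F test, two-sided, BH adjustment over 15261 genes), with all 9 libraries, 4 groups and contrasts between them. Fold changes carry a prior count of 0.125, and standard errors were calculated back from F and are approximate. Distances used log2 CPM with a prior count of 2. Named genes were those called and, up to 10 in each direction, those of smallest p whose mean log2 CPM reached 1 and whose groups did not overlap (unnamed gene models and pseudogenes left out), together with 29 genes tied to the model and up to 4 members of smallest p per list. Members, gene lists and rules were chosen with earlier results of these data known. The procedure was tested on simulated counts. Alternatives were other scaling, no filter, unstranded counts, a replicate block, a length term, subsets of libraries, DESeq2 1.42.0 and leaving out each library. 1 gene tied to the model is not reported here.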

Additional observations from a re-analysis of the deposited data

How the results depend on the processing

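The fall of Pttg1 was called under all 17 alternatives. The count of genes higher in KO ifetroban, 0 as reported, was 298 with no filter on low counts, 5 with the 2 groups alone, 2 with the libraries of long transcripts high only and 37 with DESeq2. It ranged from 0 to 8 when 1 library was left out, reaching 8 when KO vehicle replicate 1 and 7 when its replicate 2 was left out. The 5 of the 2 groups alone were Serpina3n, Tnc, Mmp3, Lgals3 and Lox, named after their values were seen. The count of lower genes, 2 as reported, was 29 with no filter, 1 with a term for length class, 4 with DESeq2, and 1 to 3 when 1 library was left out. The count between KO ifetroban and KO vehicle, 0 as reported, was 428 with no filter, 3 with DESeq2, and 0 to 449 when 1 library was left out, with 449 without KO vehicle replicate 2. The libraries of long transcripts high hold no KO vehicle, so they gave no value there. The causes were not tested.

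Of 1309 values of 77 genes, 1199 kept direction and side of the threshold, 7 were no longer called, 87 became called and 16 turned. When 1 library was left out, the log2 fold changes of genes that turned ranged from -0.96 to 0.43 for Sgcd, -0.37 to 0.22 for Myh6, -1.34 to 0.77 for Acta1, -0.22 to 0.05 for Atp2a2, -0.22 to 0.24 for Tbxa2r, -0.24 to 2.61 for Ptgs2, -0.98 to 2.33 for Mylpf and -0.78 to 2.14 for Alb. Tbxa2r also turned with no filter (0.01) and unstranded counts (0.00), and Acta1 (0.69) and Alb (-0.70) with long transcripts high. Of 42 list medians, 27 kept their sign throughout. With the replicate number as a block, 0 genes were higher and 2 lower, and Mylpf was at -0.95. The numbers do not pair the samples by label: same-numbered deviations of KO ifetroban and WT vehicle correlated at 0.48 and 0.33, but those of WT ifetroban and WT vehicle at 0.02. Reads per gene limit low genes: Cthrc1 and P4ha3 rest on 1 to 4 reads per WT vehicle library.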

Other observations

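Some genes not named above also lay apart from the wild type in every library, though none passed the test in edgeR. They were picked among the members of smallest p of their marker lists, so standing apart follows in part from that choice. Prg4, lubricin, had 83.5, 37.5 and 51.7 CPM in KO ifetroban, against 14.9 and 11.7 CPM in WT vehicle (2.11 ± 0.84, edgeR, BH-adjusted p = 0.999). Pdpn, podoplanin of lymphatic and activated stromal cells, had 20.9, 9.85 and 7.29 CPM in KO ifetroban, against 4.47 and 2.59 CPM in WT vehicle (1.85 ± 0.74), while the list of 6 tested markers of lymphatic endothelium, Pdpn included, had a median of 0.11, or -0.02 when the library labelled WT vehicle replicate 1 was left out. Ncam1, an adhesion molecule of nerve and of stressed heart muscle, had 3.55, 5.68 and 4.85 CPM in KO ifetroban, against 2.26 and 2.82 CPM in WT vehicle. In each of the 3 genes the groups did not overlap.

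Genes of oxidative stress were positive in 15 of 18 cases, with a median of 0.46, which was 0.30 without WT vehicle replicate 2. At an unadjusted p under 0.05, 3 were higher, where 3.28% of all genes were. Cybb, the catalytic subunit of the phagocyte NADPH oxidase, had 16.3, 18.1 and 18.7 CPM in KO ifetroban, against 8.62 and 11.9 CPM in WT vehicle (0.78 ± 0.23, edgeR, BH-adjusted p = 0.815). Hmox1, heme oxygenase, had 29.3, 19.4 and 18.8 CPM in KO ifetroban, against 8.21 and 8.89 CPM in WT vehicle. Smtn, a smooth muscle protein, went the other way, with 102, 114 and 111 CPM in KO ifetroban, against 126 and 165 CPM in WT vehicle (-0.42 ± 0.17). Cell cycle genes other than Pttg1 had no member at an unadjusted p under 0.05, while Pttg1, a member of that list, had the smallest p of all genes tested.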
